A study of Mus musculus with 8 samples.

Results

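The genes described here are cargo receptors of selective autophagy (Sqstm1, Nbr1, Optn, Tax1bp1 and Calcoco1) and transcription factors that drive autophagy genes (Foxo3 and Tfeb). Members were found by gene symbol in the array's annotation, and 6 of the 7 had a probe, among 19057 genes named on the array. Optn had no probe under its symbol and is not analysed here. The 6 genes had 11 probes between them, of which 5 probes of 4 genes were bright enough to be tested.

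RNA from red cell precursors of mouse bone marrow, sorted as CD71+Ter119+ cells, was measured on Illumina bead arrays in 4 KAP1 KO and 4 KAP1 WT samples. KAP1 is the product of Trim28, a scaffold through which KRAB zinc finger proteins silence the DNA they bind. By its title, the series asks how KAP1 and microRNAs bear on mitochondrial clearance during erythropoiesis. All 8 samples came from bone marrow of mice aged 8 to 12 weeks, of mixed strain, and their label gives the background of both groups as Kap-flox/stopfloxYFP. The sources used here give neither the deleter that inactivated the floxed gene nor whether each sample is a separate animal. The p-values therefore measure the spread between these samples, part of which may be technical. The sample codes are A4, A8, A11 and A13 for KO, and C4, C6, C8 and C9 for WT.

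Selective autophagy removes organelles and protein aggregates by tethering them to a growing membrane, the autophagosome, which then fuses with the lysosome. Cargo receptors make the tether: they link the cargo, in many cases by binding ubiquitin on it, to ATG8 proteins on the membrane. Maturing red cells use this route, with the receptor BNIP3L in a leading role, to clear their mitochondria. FOXO3 and TFEB act in the nucleus, FOXO3 on antioxidant and autophagy genes in maturing mouse erythroblasts, and TFEB on genes of lysosomes and autophagosomes.

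Values are probe intensities with a floor of 20, below which nothing was recorded. Tested probes exceeded that floor on at least 4 of the 8 arrays, and changes are KO minus WT in log2 intensity, fitted in limma over all 12259 tested probes. The call threshold was a Benjamini-Hochberg adjusted p of 0.05 over those probes, and intervals are 95% intervals of the same fit. Each array had 12143 to 12199 probes above the floor. One array, A8, was least like its group (mean correlation 0.894 with the other KO arrays), where every other array reached at least 0.934 with its own. Trim28 (ILMN_1227225) read 207, 171, 141 and 131 in KO and 740, 395, 641 and 406 in WT, a fall of 3.28-fold (adjusted p = 0.0085 in limma, n = 4 each). The sources do not say whether this probe lies within the deletion. Red cell genes were bright in every sample: Hba-a1, a subunit of adult hemoglobin, read 17869 to 27362, and Tfrc, which encodes CD71, 4025 to 14924. Klf1, a master factor of the lineage, read 3003 to 3381 in KO and 2286 to 2841 in WT. It did not pass (log2 change 0.32, adjusted p = 0.255 in limma). Every KO sample was above every WT sample for Klf1, as for 10.5% of tested probes. These values do not show that other cells were absent, and markers of other cells are given below.

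The upstream sequences of the genes that fell are shown first, because FOXO3, TFEB and the erythroid factor GATA1 act through short DNA motifs. They come from RefSeq (build GRCm38.p6) and run from 250 bases before an annotated start site to 5 bases from it on, read 5′ to 3′ on the gene's strand. Sqstm1 lies at chr11:50210816-50211070, minus strand, and the capitals mark its TATAAA, which begins 1 base before the annotated start. It matches the letters of the TATA box, and whether it acts as one was not tested. Tax1bp1 has more than 1 annotated start, and the upstream one, at chr6:52713479-52713733, plus strand, is shown with no capitals since it holds none of the motifs searched.
Sqstm1: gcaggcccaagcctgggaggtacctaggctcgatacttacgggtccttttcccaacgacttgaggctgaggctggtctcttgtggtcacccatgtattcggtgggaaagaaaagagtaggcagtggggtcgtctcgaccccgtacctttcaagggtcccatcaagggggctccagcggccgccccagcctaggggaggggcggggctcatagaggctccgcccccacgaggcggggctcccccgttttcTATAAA
Tax1bp1: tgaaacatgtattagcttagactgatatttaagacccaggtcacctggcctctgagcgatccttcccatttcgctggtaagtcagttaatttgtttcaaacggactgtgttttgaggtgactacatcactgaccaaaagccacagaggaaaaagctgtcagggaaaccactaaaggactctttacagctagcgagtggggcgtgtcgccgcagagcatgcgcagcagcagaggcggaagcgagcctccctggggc

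All 7 members had windows in that table, 11 in all, each with 250 bases before the start and 50 after. On both strands, none of the 11 held CACGTG (the E-box, present in 7.15% of 32851 windows), its longer form TCACGTGA of the TFEB type (0.974%), the forkhead motif GTAAACA (3.65%), or the GATA motifs TGATAA (9.05%) and AGATAA (11.2%). TATAAA, searched after the sequence was seen, was in 1 of the 11 windows, that of Sqstm1, and in 13.6% of all windows. The CACGTG count includes windows that hold TCACGTGA, which contains it. These matches describe letters in short windows and say nothing of binding by any factor.

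Among the receptors, Sqstm1 and Tax1bp1 fell in KO cells and no member rose. Of the 5 tested member probes, 2 passed as lower and none as higher, where 3.11% of all tested probes passed as lower and 2.46% as higher. All 5 had a change below 0, with a median of -0.84 in log2 intensity, against a median of 0.09 over all tested probes, 44.0% of which were below 0. With 5 probes, these counts describe the members and carry no test of the group. In bulk RNA, fewer cells of a type and less RNA per cell cannot be told apart. Markers of late erythroblasts were also lower in these KO samples (means of 8.55 to 10.22 in log2 intensity, against 11.19 to 11.87 in WT). Those markers were chosen with earlier results of these data known.

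Sqstm1 encodes sequestosome 1, a receptor that binds ubiquitin and ATG8 proteins and also holds KEAP1, the brake on the antioxidant factor NRF2. Its probe (ILMN_2710705) read 711 (A4), 334 (A8), 540 (A11) and 558 (A13) in KO, against 2017 (C4), 1182 (C6), 1205 (C8) and 1279 (C9) in WT. Every KO sample was below every WT sample, with A8 lowest and C4 highest. In log2 intensity the means were 9.01 ± 0.46 in KO and 10.44 ± 0.37 in WT (SD, n = 4 each). The fall was 2.68-fold (log2 change -1.42, SE 0.28, adjusted p = 0.0226 in limma), with a 95% interval from 1.73-fold to 4.14-fold. Only 2.24% of tested probes had a lower change.

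Tax1bp1 encodes a receptor that also binds ubiquitin and ATG8 proteins and is known for limiting inflammatory signalling. Its single probe (ILMN_2591414) read 538, 702, 978 and 786 in the KO samples, in the same order, and 1733, 1482, 1721 and 1651 in the WT samples. The groups again did not overlap, and the WT samples lay close together. Mean log2 intensity was 9.52 ± 0.36 in KO and 10.68 ± 0.10 in WT (SD, n = 4 each), a fall of 2.24-fold (log2 change -1.16, SE 0.21, adjusted p = 0.0169 in limma). The 95% interval ran from 1.61-fold to 3.12-fold. Here A8 was not the lowest KO sample, and A4 was. Across the table, 7.31% of tested probes had every KO sample below every WT sample, as these 2 of the 5 member probes did.

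Nbr1 encodes a receptor related in structure and function to sequestosome 1, and its 2 probes averaged lower in KO without passing. ILMN_1220889 read 86.8, 26.3, 71.8 and 86.3 in KO and 77.0, 118, 118 and 136 in WT. The groups overlapped through C4, the lowest WT sample, and A8 was far below the other KO samples. This gave a 1.79-fold difference (log2 change -0.84, 95% interval -1.72 to 0.04, adjusted p = 0.219 in limma), and -0.44 without A8. The other probe, ILMN_2664797, read 39.3, 20, 46.8 and 46.3 in KO and 70.1, 54.1, 44.7 and 59.3 in WT. Its KO sample A8 was at the floor, and the groups overlapped through C8. The difference was 1.56-fold (log2 change -0.64, 95% interval -1.31 to 0.03, adjusted p = 0.22 in limma), and -0.36 without A8. If the true signal of A8 lies below the floor, the 1.56-fold is an understatement.

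**Figure D1:**
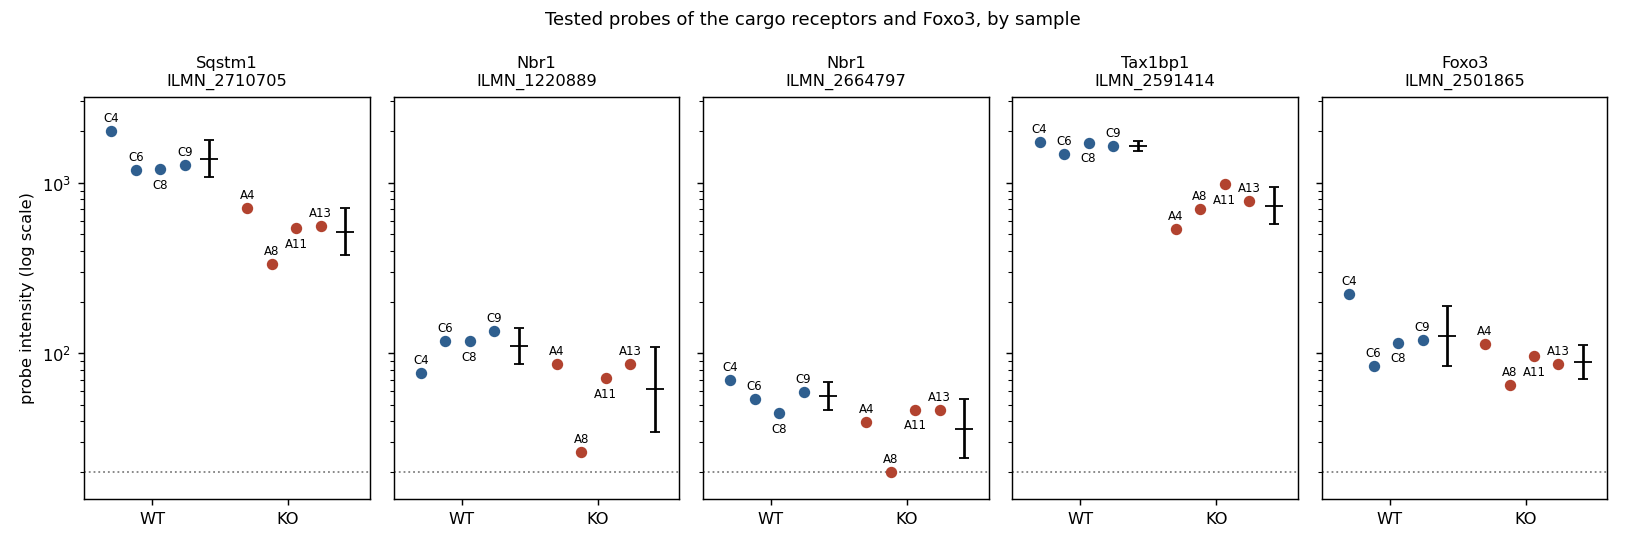
Probe intensity (log axis) of each tested probe in every WT (blue) and KO (red) sample, labelled by sample code, with the geometric mean and 1 SD on the log2 scale in black (n = 4 each) and the floor of 20 as a dotted line. For Sqstm1 and Tax1bp1 all KO samples lie below all WT samples, while both Nbr1 probes and Foxo3 overlap.

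Calcoco1, a receptor for endoplasmic reticulum and Golgi in mammalian cells, was not measurable in these cells on this array. ILMN_1223327 was at the floor in all 8 samples, and ILMN_1241128 in all but C4, where it read 20.4. No change can be given for it in either direction.

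Of the transcription factors, Foxo3 was dim and did not pass, and Tfeb was at the floor. Foxo3 encodes a forkhead factor that sustains antioxidant genes and cell maturation in mouse erythroblasts. Its tested probe (ILMN_2501865) read 114 (A4), 65.3 (A8), 96.7 (A11) and 86.6 (A13) in KO, against 222 (C4), 84.5 (C6), 116 (C8) and 119 (C9) in WT. C6 lay among the KO values and C4 far above all other samples. The means were 6.47 ± 0.34 and 6.99 ± 0.58 in log2 intensity, a 1.43-fold difference that did not pass (log2 change -0.51, 95% interval -1.21 to 0.19, adjusted p = 0.333 in limma). Without C4 the change was -0.24, and without C6 it was -0.71 (adjusted p = 0.175). The interval reaches from 2.32-fold lower to 1.14-fold higher in KO, so neither no change nor a fall like that of Tax1bp1 lies outside it. The 2 other Foxo3 probes (ILMN_2439078 and ILMN_2690574) were at the floor in every sample.

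Tfeb encodes the factor of the MiT family best known for switching on lysosomal genes. Both of its probes (ILMN_1235592 and ILMN_2939434) were at the floor in all 8 samples, so its level was below what these values record in KO and WT alike. Of its family, Tfe3 was tested and did not pass (log2 change 0.42, adjusted p = 0.465 in limma), and Mitf and Tfec were at the floor in all samples.

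**Figure D2:**
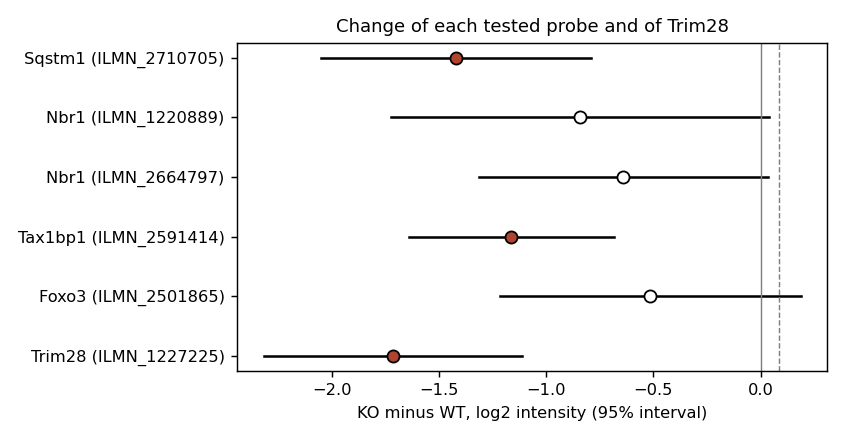
KO minus WT in log2 intensity with its 95% interval for the 5 tested member probes and for Trim28, filled where the adjusted p was under 0.05. The dashed line is the median of all tested probes (0.09), and the intervals of both Nbr1 probes and of Foxo3 cross 0.

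Marker lists for stage and for other cell types also separated some of these samples. The list of late erythroblast markers was chosen with earlier results of these data known. Of its 13 tested genes, 9 fell (69.2%, against 3.25% of all tested genes) and 13 had a change below 0. Their mean log2 intensity was 8.55 to 10.22 in KO and 11.19 to 11.87 in WT, lowest in A8 and highest in C4. The count of 9 was 8 without A8, 4 without A13 and 5 without C4, C8 or C9. Mkrn1, Ube2o and Bnip3l, which is also an autophagy receptor, were the listed genes with the smallest p. For 11 tested erythroid markers the means were 10.34 to 10.86 and 10.74 to 11.26, with 2 lower (1 without A4, A8, C4, C8 or C9, and 0 without A13). These 2, Alas2 and Hbb-b2, are also on the list of late erythroblast markers. All 13 tested B-cell markers had changes below 0 with 1 past the threshold (H2-Aa, a class II antigen gene, not past it without A4, A8, A11, C4, C6 or C9) and 11 at an unadjusted p under 0.05, and their means were 6.73 to 8.01 in KO and 7.99 to 9.30 in WT, again highest in C4. Pax5, a defining B-cell factor, was at the floor in all samples. Megakaryocyte and platelet markers (6 tested, with Tubb1 higher) averaged 6.35 to 6.45 in KO and 5.20 to 5.51 in WT. Mast cell and basophil markers (4 tested, with Cpa3 and Fcer1a higher and Prss34 lower) averaged 6.34 to 6.79 and 5.48 to 6.15. Leaving out A13 ended the calls of Fcer1a (adjusted p = 0.0512) and Prss34, and the latter's also ended when C4 or C9 was absent (at most 0.0882). Markers of T and NK cells (6 tested, with Cd2 lower) averaged 4.93 to 5.76 in KO and 5.14 to 6.47 in WT. None of 16 neutrophil and myeloid markers, 11 macrophage markers or 7 markers of early erythroid progenitors passed in limma. At an unadjusted p under 0.05 were 3, 0 and 2 of them in turn, and their group ranges overlapped. Neutrophil and myeloid markers were bright, averaging 9.84 to 11.04 in KO and 9.27 to 10.77 in WT. In both groups these ranges overlapped those of the erythroid markers. Macrophage markers averaged 6.44 to 7.56 in KO and 6.67 to 7.26 in WT. Markers of early erythroid progenitors averaged 6.86 to 7.99 and 6.67 to 7.22. Of these, Gata2 (log2 change 1.24, adjusted p = 0.105 in limma) passed as higher in KO without A13 (0.0216). Its WT samples other than C9 were at the floor. The share of other cells in each sample was not tested. The part of stage and of other cells in the falls of Sqstm1 and Tax1bp1 was not tested.

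**Figure D3:**
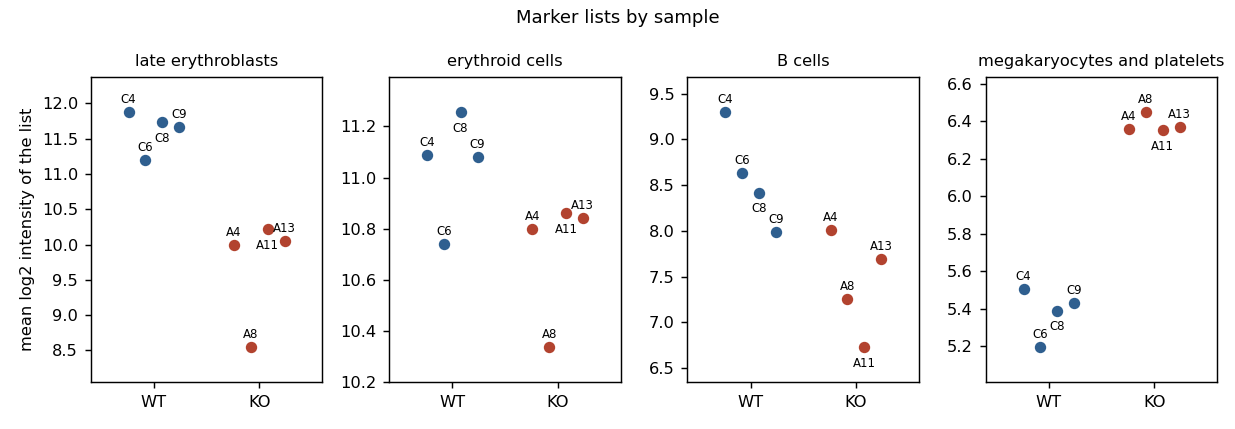
Mean log2 intensity of the tested genes of 4 marker lists in each WT (blue) and KO (red) sample, labelled by sample code, with separate vertical axes. Late erythroblast means do not overlap and are lower in KO, platelet means do not overlap and are higher in KO, and C4 is highest for late erythroblast and B-cell markers.

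Calls on these genes depended on single samples, although their direction did not. Sqstm1 lost its call without A11 (adjusted p = 0.0610), A13 (0.0633), C4 (0.0621) or C9 (0.0605), with log2 changes between -1.57 and -1.21 over the 8 fits that left out 1 sample. Tax1bp1 lost it without A13 (0.0521), C4 (0.0560) or C9 (0.0542), with changes between -1.30 and -1.01. Without A8, the array that stood apart, both passed (adjusted p = 0.0307 for Sqstm1 and 0.0314 for Tax1bp1 in limma). In the authors' deposited table, whose fold and p-value are computed from the same intensities, Sqstm1 was lower by 2.68-fold with p = 0.00323, and Tax1bp1 by 2.24-fold with p = 0.00521. Adjusted over the 18468 probes that have a p in that table, these became 0.130 and 0.158.

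**Figure D4:**
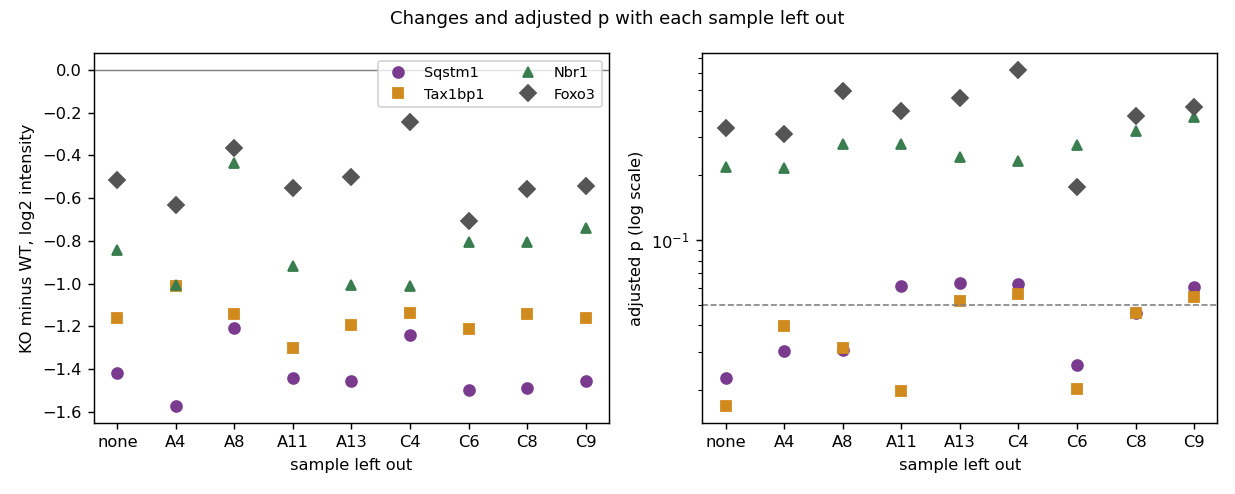
Left, KO minus WT in log2 intensity, and right, the adjusted p from limma (log axis, dashed line at 0.05), for Sqstm1, Tax1bp1, Nbr1 (ILMN_1220889) and Foxo3 with all samples (none) and with each sample left out. All changes stay below 0, and the points of Sqstm1 and Tax1bp1 cross the dashed line without A13, C4 or C9.

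Whether members changed by different amounts was tested on the log2 difference between their probes in each sample, for the 6 pairs among Sqstm1, Nbr1 (ILMN_1220889), Tax1bp1 and Foxo3. These tests were chosen after the values were seen. The probes of Nbr1 and Foxo3 were much dimmer than those of Sqstm1 and Tax1bp1, and the part of brightness in the differences was not tested. The largest difference was between Sqstm1 and Foxo3, 0.91 further down for Sqstm1 (-0.91), with no overlap between the groups. Its two-sided exact permutation p was 0.0286, the smallest that 4 against 4 samples allow, and 0.171 after adjustment over the 6 pairs. Sqstm1 and Tax1bp1 differed by -0.26 (exact permutation p = 0.571), and for the 4 remaining pairs the exact p was 0.143 to 0.543. A single pair at the smallest possible p cannot pass after this adjustment, so the adjusted values do not settle which members differ. The fall of Sqstm1 was not shown to exceed the change of Nbr1 (difference -0.58, exact permutation p = 0.229).

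The samples that were high or low recurred across members. A8 was the lowest of all samples at 4 of the 5 tested probes (all but Tax1bp1), and C4 the highest at 4 of the 5 (all but ILMN_1220889 of Nbr1). With group means removed, Sqstm1 and Foxo3 correlated with r = 0.895 over the 8 arrays, and Sqstm1 and Tax1bp1 with r = -0.10. These values describe arrays that share a group, a sort and a normalization, and have no test.

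Of all tested genes, each by its brightest tested probe, those with the pattern most like Sqstm1 over the 8 arrays were Reln (Pearson r = 0.988, and 0.956 with group means removed), Mff (0.983 and 0.913) and Trim26 (0.978 and 0.890). Mff encodes a factor of mitochondrial fission, and Reln a secreted glycoprotein best known from brain development. For Tax1bp1 they were Ghitm (0.977 and 0.826), Cmas (0.977 and 0.816) and Rarg (0.975 and 0.808), where Ghitm encodes an inner mitochondrial membrane protein and Rarg a retinoic acid receptor. Genes chosen this way follow the split between KO and WT, so their own difference between the groups is no further result. Nbr1 was most like Fzr1 (0.974), Ndufb7 (0.970) and Slc2a4 (0.969), and Foxo3 most like Aoc3 (0.926), Rpsa (0.922) and Ifnz (0.921). The number of genes with r over 0.95 was 30 for Sqstm1, 26 for Tax1bp1, 10 for Nbr1 and 0 for Foxo3.

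Among other receptors, Bnip3l and Sec62 fell. Of 14 tested genes for other selective autophagy receptors, 2 fell, none rose and 12 did not pass, with a median log2 change of 0.10 against 0.11 over all 7178 tested genes. Among those genes, 3.25% passed as lower and 2.4% as higher. Bnip3l, the mitochondrial receptor of maturing red cells, read 3241 to 4784 in KO and 13043 to 19066 in WT, a fall of 4.13-fold (adjusted p = 0.0013 in limma). Sec62, a subunit of the endoplasmic reticulum translocon with a receptor role in recovery from stress in mammalian cells, fell 3.67-fold with 3 of 4 KO samples above the floor. Both passed whichever sample was left out, but Sec62 did not pass without a filter (adjusted p = 0.0749), with the authors' deposited p-values (0.104) or with a floor of 50 (0.0553), where its change was -0.89 in place of -1.88. Ncoa4, the receptor that delivers ferritin to lysosomes, named here after its values were seen, did not pass (log2 change -2.56, adjusted p = 0.0974 in limma), and its KO sample A8 was at the floor. Without A8 its change was -1.63 and passed (adjusted p = 0.0313), so that 3 genes of the list were lower. Its 2 other tested probes did not pass either, with changes of -2.79 and -1.13 (-1.99, which passed, and -0.08 without A8). Bnip3 was at the floor in all samples. The ATG8 proteins that receptors grip had changes below 0 for all 5 genes, with a median of -0.50, and 1 of 5 passed: Gabarapl2 fell 2.12-fold with 2 KO samples above the floor. In the fits that left out 1 sample its call held only without C6, and its adjusted p reached 0.124 without another. Gabarapl2 also did not pass without a filter (adjusted p = 0.270), under another variance model (0.0559) or with the authors' deposited p-values (0.207).

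Among partners of the receptors and genes of the NRF2 pathway, Csnk2a1 rose and Gclm fell. Of 13 tested partners and kinases, 1 rose (7.69%, against 2.4% of all tested genes) and none fell. Csnk2a1, which encodes a catalytic subunit of casein kinase 2, was 2.75-fold higher (adjusted p = 0.0473 in limma) with overlap between the groups. It lost its call without A4, A8, A11, C4, C8 or C9 (up to 0.118), and its other probe was 1.64-fold higher without passing. Tbk1, the kinase that activates receptors by phosphorylation, averaged lower without passing (log2 change -0.53, adjusted p = 0.0882 in limma), and Keap1 changed by 0.33 (adjusted p = 0.255). Of 13 tested genes for NRF2 and its targets, 1 fell (7.69%, against 3.25% of all tested genes) and none rose. Gclm, a subunit of the enzyme that makes the precursor of glutathione, fell 1.76-fold, but its adjusted p rose as high as 0.111 when 1 of A4, A11, A13, C4, C8 and C9 was absent. The list median was -0.01.

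Genes known as FOXO targets fell in a minority, and regulators of FOXO proteins did not pass. Of 25 tested FOXO targets, 4 fell (16.0%, against 3.25% of all tested genes), none rose and 21 did not pass. Their median log2 change was -0.18, against 0.11 over all tested genes. This list, like the other lists given here, was chosen with earlier results of these data known. Cat, which encodes catalase, read 327 to 555 in KO and 1261 to 2797 in WT, a fall of 4.94-fold (adjusted p = 0.0034 in limma). Ulk1, a kinase at the start of autophagosome formation, was 2.97-fold lower, Atg12, part of the machinery that attaches ATG8 proteins to membrane, 2.15-fold, and the growth arrest gene Gadd45a, named after its values were seen, 2.05-fold. Cat alone of these kept its call whichever sample was left out. Cat did not pass without a filter (adjusted p = 0.0624 in limma) or with the authors' deposited p-values after adjustment (0.0688). Atg12 lost its call without A13 (adjusted p = 0.0510), Ulk1 without A4, A11, A13, C4, C8 or C9 (up to 0.108) and Gadd45a without any but C6 (up to 0.0982). A further Ulk1 probe missed the threshold at 2.86-fold lower (adjusted p = 0.0642), and a further Gadd45a probe passed at 2.51-fold lower (adjusted p = 0.0208). The count of 4 became 3 without A8, 5 without C6, 1 without A13 and 2 without A4, A11, C4, C8 or C9. It was 0 without a filter on dim probes and 0 with the authors' deposited p-values after adjustment. Among 17 tested genes for FOXO relatives and regulators, none passed in limma (4 at an unadjusted p under 0.05), nor with the authors' deposited p-values after adjustment. The smallest p was that of the deacetylase gene Sirt2 (2.03-fold higher, adjusted p = 0.0613), which passed with array weights (0.0211) and without C6 (0.0426). Prkaa1, a catalytic subunit of the energy sensor AMPK, passed as lower without C6 (log2 change -1.21, adjusted p = 0.0354, against -0.89 with all samples). Foxo4 was at the floor in all samples, and neither Foxo1 nor Foxo6 had a tested probe.

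Among TFEB targets, Ctsb and Npc1 fell. Of 37 tested genes, 2 fell (5.41%, against 3.25% of all tested genes), none rose and 35 did not pass. The median log2 change was 0.12, against 0.11 over all tested genes, so neither value sets the list apart. The lysosomal protease gene Ctsb fell 1.74-fold and Npc1, which exports cholesterol from lysosomes, 1.90-fold. Neither call was stable: Ctsb lost it without any one of the 8 samples (adjusted p up to 0.110), and Npc1 without any but C6 (up to 0.118). Glb1, a lysosomal galactosidase gene, passed as higher without C6 (adjusted p = 0.0437, and 0.195 with all samples). The 2 other tested probes of Npc1 did not pass, with changes of 0.04 and -0.17. Of 17 tested relatives and regulators of TFEB, none passed in limma (1 at an unadjusted p under 0.05), nor with the authors' deposited p-values after adjustment. The smallest p was that of Rragd, a GTPase that recruits the kinase mTOR and TFEB to lysosomes (1.77-fold lower with 1 KO sample above the floor, adjusted p = 0.0634), which passed with array weights (0.0224) and without C4 (0.0346).

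**Figure D5:**
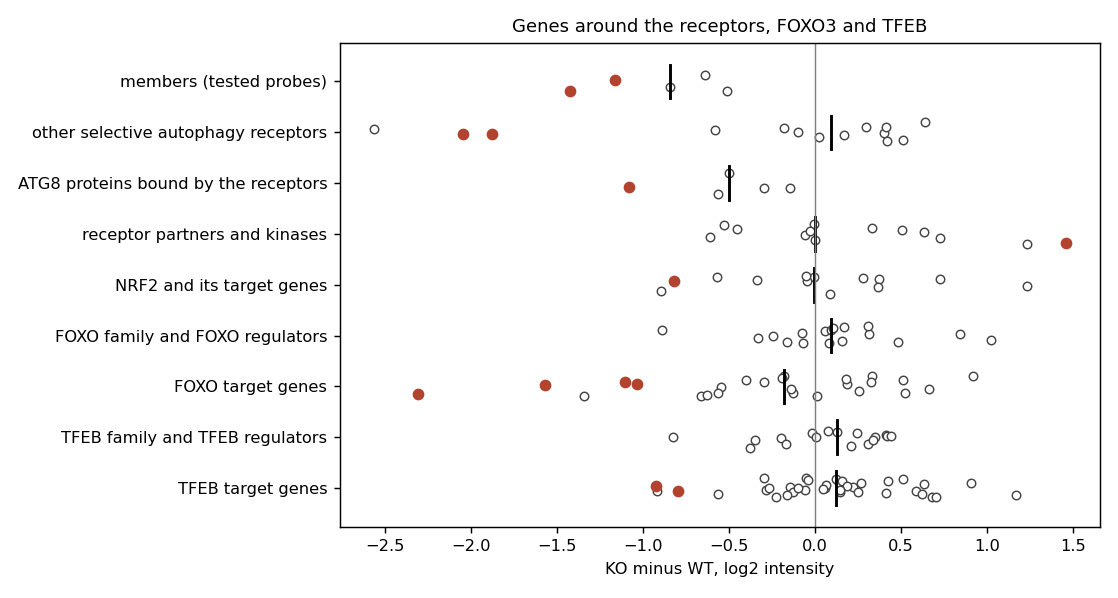
KO minus WT in log2 intensity for the tested member probes and for the tested genes of 8 related lists, each point a probe or gene, filled where the adjusted p was under 0.05, with the median of each row as a black bar. Filled points lie below 0 except that of Csnk2a1, and the medians of the lists lie between -0.50 and 0.13, above that of the members.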

How the data were processed

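Gene expression in 8 sorted bone marrow samples was measured on Illumina bead arrays from 100 ng of RNA per sample. The authors deposited a linear intensity for each of 45281 probes. The submitters' processing notes name BeadStudio 3.1.3, and the sources used here do not give its settings. At 4959 of the 5000 highest ranks the arrays' intensities were equal within 0.1 percent, as after quantile normalization, so a global shift in brightness cannot be seen. The floor of 20 held 73.1% to 73.2% of probes per array, and changes below it cannot be seen either.

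The authors' deposited table of comparisons holds a signed fold, used here as a score, and it matched the ratio of group geometric means at each of the 45281 probes (relative tolerance 0.0001). The deposited p-value is under a heading for detection but matched an unequal-variance test of log2 intensity at each of the 18468 probes with a value (relative tolerance 0.001). The 8 signal columns of a table of values before normalization match no sample label and were not used.

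After conversion to log2, a 2-group model without covariates was fitted in limma 3.58.1 (R 4.3.3) with empirical Bayes moderation. Genes with several tested probes are represented in lists by the brightest. Gene names come from the array's annotation, with 34807 of 34885 singly named probes matched by Entrez identifier to RefSeq genes of GRCm38.p6, and no array coordinates are given. The members, lists and tests were chosen with earlier results of these data known, and the tests between pairs of members after their values were seen. Named from each list were up to 3 genes with the smallest p past the threshold, or the 1 with the smallest p, and Ncoa4, Bnip3, Tbk1, Keap1, Gadd45a, Prkaa1, Glb1, Tfe3 and other family members were added after their values were seen. The number of arrays limits the precision. Alternatives changed the filter, floor, variance model, array weights, centring and test, and left out each sample.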

Additional observations from a re-analysis of the deposited data

Results flagged for a closer look

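A sample was singled out where its gap to the nearest sample of its group, over the range of the 4 samples, exceeded Dixon's 95% critical value. Chance gives this in about 1 in 20 groups of normally spread values, a rate that does not hold for groups with readings at the floor or tied. Some groups here were of that kind, so the count is not compared with that rate. Of the 69 groups examined, 8 had such a sample. Among members these were WT sample C4 for Sqstm1 (2017, the other WT samples 1182 to 1279) and KO sample A8 for Nbr1 at ILMN_1220889 (26.3, the others 71.8 to 86.8). Sqstm1 without C4 had a log2 change of -1.24, and Nbr1 without A8 one of -0.44.

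Other named genes with such a sample were Cd2 in C4 (206, the others 107 to 116) and Mkrn1 in KO sample A11 (754, the others 587 to 595). Hba-a1 was lowest in C6 among WT samples (25407, the others 27144 to 27362). Its reading was the same, 27362, in C8, C9 and KO sample A13. For Cpa3 in C6 (51.6), Gata2 in WT sample C9 (20.4) and Rragd in A8 (21.9), the 3 other samples of the group were at the floor of 20.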

How the results depend on the processing

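Every alternative left all 5 member changes below 0, and no member probe passed as higher under any. Without a filter on dim probes, 74 probes were higher and 78 lower in KO, and 0 member probes passed: Sqstm1 kept its change of -1.42 (adjusted p = 0.184) and Tax1bp1 its -1.16 (0.0948). At an unadjusted p under 0.05 in that fit were 3086 of the 45281 probes, 2 of them member probes. The authors' deposited p-values, adjusted over their table, gave 28 higher and 39 lower and 0 member probes, with Sqstm1 at -1.42 (0.130) and Tax1bp1 at -1.16 (0.158). Before adjustment, 2455 of the 18468 deposited p-values were under 0.05, 2 of them for member probes. Array weights gave 836 higher and 702 lower, and a filter on all 8 arrays 171 higher, with both members still called. Leaving out single samples gave 91 to 557 higher and 162 to 586 lower probes, 0 to 2 lower member probes (0 without A13, C4 or C9, and 1 without A11), and changes of -1.57 to -1.21 for Sqstm1, -1.30 to -1.01 for Tax1bp1, -1.01 to -0.44 and -0.76 to -0.36 for the Nbr1 probes and -0.71 to -0.24 for Foxo3. The cause of these shifts was not tested. Recomputing the lists was a choice made after the data were seen: across the 8 alternatives that kept all samples, 1 to 4 other receptors, 0 to 6 FOXO targets and 0 to 2 TFEB targets were lower. The ILMN_2664797 probe of Nbr1 dropped out with a floor of 50 or a filter on all arrays. The floor limits what can be said of Calcoco1 and Tfeb.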
